A study of Mus musculus with 9 samples.

Results

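The genes examined here were 40 genes of fatty acid oxidation and ketone body metabolism, taken by symbol from a list of the pathway, of 33211 genes in the deposited table. All 40 were found, and all 40 passed the filter on low counts that left 14220 genes tested. Liver RNA-seq was available for male C57BL/6 mice (C57BL6/J in the study's methods), 8 weeks old at the start and given a high-fat diet (HFD) for 7 weeks. The opened diet had been kept at -20 °C in a freezer (HFDfre, 5 libraries) or at 4 °C in a fridge (HFDfri, 4 libraries), so both groups ate HFD and no lean-diet group was compared. The labels do not say that each library came from a separate animal, and p-values measure the spread between these libraries. Levels are given in CPM, in which a count is scaled to the TMM-adjusted size of its library, and differences as log2 fold changes of HFDfri minus HFDfre with their standard error (SE).

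Fatty acids are carried into the liver cell and joined to coenzyme A by acyl-CoA synthetases. Long-chain acyl groups enter mitochondria through the carnitine shuttle and are shortened there by the repeated steps of beta-oxidation, and the acetyl-CoA made can leave the liver as ketone bodies. Very long-chain and branched fatty acids are shortened in peroxisomes first. Many of these genes are targets of the nuclear receptor PPARA, which binds DNA with RXRA and is well known for its role in the fasting liver.

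The promoters of 5 members are shown, in 4 stretches. They belong to the largest increase (Acsl4), a pair of paralogs on chromosome 9 (Acaa1a and Acaa1b) and a head-to-head gene pair (Hadha and Hadhb). Acaa1a and Acaa1b both had negative log2 fold changes, and neither passed the adjusted threshold by edgeR. The stretches are the RefSeq sequence upstream of a start, on GRCm38, the assembly also called mm10, with annotated GENCODE exons left out, 5′ to 3′ on the strand named. Capitals mark the CCAAT box, which reads ATTGG on the other strand. For Acsl4 the stretch is chrX:142390536-142390785 on the minus strand, for Acaa1b chr9:119157094-119157343 on the minus strand, for Acaa1a chr9:119341160-119341293 on the plus strand. The Acaa1a stretch ends at the RefSeq start and lies in the first intron of longer transcripts that GENCODE annotates for the gene. In GENCODE, Hadha on the minus strand and Hadhb on the plus strand have 85 bases between them, and chr5:30155163-30155247 is all of that sequence, shown on the plus strand.
Acsl4: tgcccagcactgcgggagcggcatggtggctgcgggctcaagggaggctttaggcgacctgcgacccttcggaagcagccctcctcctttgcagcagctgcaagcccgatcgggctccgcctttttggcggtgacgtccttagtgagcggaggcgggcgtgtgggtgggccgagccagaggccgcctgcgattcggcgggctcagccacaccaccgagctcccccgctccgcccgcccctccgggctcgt
Acaa1b: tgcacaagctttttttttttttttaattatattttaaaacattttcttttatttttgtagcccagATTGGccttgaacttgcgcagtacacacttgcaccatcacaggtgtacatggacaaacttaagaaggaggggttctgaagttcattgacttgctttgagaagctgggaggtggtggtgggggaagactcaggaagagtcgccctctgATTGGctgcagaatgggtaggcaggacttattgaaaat
Acaa1a: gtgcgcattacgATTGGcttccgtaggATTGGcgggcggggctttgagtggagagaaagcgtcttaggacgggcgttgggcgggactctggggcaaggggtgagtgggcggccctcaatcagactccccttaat
Hadha-Hadhb: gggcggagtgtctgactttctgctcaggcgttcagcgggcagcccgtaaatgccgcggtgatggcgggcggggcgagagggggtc

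The 2 Acaa1 stretches hold 2 CCAAT boxes each, and those of Acsl4 and Hadha-Hadhb hold none. The Acsl4 stretch has 25 CpG dinucleotides and 70.8% G and C over 250 bases, whereas that of Acaa1b has 2 and 41.6%. Windows from 250 bases before to 50 after the start were found for 34 of the 40 members (39 windows, since some genes have more than 1 start), and no window was found for Vnn1, Acaa2, Hsd17b4, Crat, Abcd2 and Decr1. The CCAAT box, searched on both strands, was in 16 of the 39 member windows and in 37.4% of all 32851 windows. AGGTCA, the short motif bound by nuclear receptors, was in 5 member windows (those of Acadm, Acadvl, Cpt1a, Scp2 and Slc27a2) and in 16.3% of all. A pair of copies of it in a row with 1 base between, the DR1 type of element that PPARA and RXRA bind, was in no member window and in 0.0396% of all, and the looser AGGNCA repeated in the same way was in no member window and in 0.381% of all. At such shares a match in 39 windows would be rare, and sequence outside the windows was not searched. The absence therefore does not show that the members lack such elements. TATAAA was found for Fgf21 alone among the members, against 13.6% of all windows. Member windows had a median of 16 CpG dinucleotides and 60.7% G and C, against 7 and 52.7% over all windows.

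Library totals ran from 58614917 to 69353439 counts. The tissue label was met by the hepatocyte markers, whose summed level was 83019 to 89554 CPM in HFDfre and 72568 to 99501 CPM in HFDfri. Counts from the mitochondrial genome took 15.4% ± 3.04 of an HFDfre library and 10.6% ± 2.07 of an HFDfri library (SD, exact permutation p = 0.0397, adjusted over 5 library measures 0.0992). The major urinary protein (Mup) genes took 7.54% ± 1.47 and 12.2% ± 2.40 (two-sided exact permutation p = 0.00794, the smallest value this test can give with 5 and 4 libraries, adjusted 0.0397). Gm26924, an annotated locus that resembles ribosomal RNA, took 5.32% ± 4.23 and 2.14% ± 2.14 (exact permutation p = 0.214, adjusted 0.357). Leaving the mitochondrial, Mup and Gm26924 genes out of the scaling left the same 2 members past the adjusted threshold. None of 12 marker lists of liver and other cell types differed in its summed level after adjustment over the lists. The nearest were pericentral hepatocyte markers (10014 CPM in HFDfre against 8730 in HFDfri, exact permutation p = 0.0317, adjusted 0.190) and pancreas markers (13.6 and 19.7 CPM, exact permutation p = 0.0238, adjusted 0.190), of which Cela1 alone passed the filter and 3 of 5 were at 0 in every library. The hepatocyte sum was mostly Alb (65828 CPM in HFDfre), and none of its 6 markers passed the adjusted threshold by edgeR. Hnf4a, Cps1 and Ttr had log2 fold changes of 0.46, 0.70 and -0.43 (adjusted p by edgeR = 0.0566, 0.0677 and 0.109). Alas2, an erythroid marker, passed the adjusted threshold (0.40, adjusted p by edgeR = 0.0486). The part of these differences in the values of the members was not tested. In whole tissue, fewer cells of a type and less RNA per cell cannot be told apart.

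Library HFDfre 4 stood apart over the members. It had the highest level of the 9 libraries in 22 of the 40 members (55% of members, against 10.6% of all tested genes) and the lowest in 0. The 40 members together took 1.61% of its counts. In the other HFDfre libraries they took 1.14% to 1.47%, and in the HFDfri libraries 1.22% to 1.501%. The group means were 1.35% ± 0.193 and 1.41% ± 0.128 (SD, exact permutation p = 0.603). HFDfri 1 had the lowest level in 12 members (30%, against 17.3% of all tested genes).

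**Figure D1:**
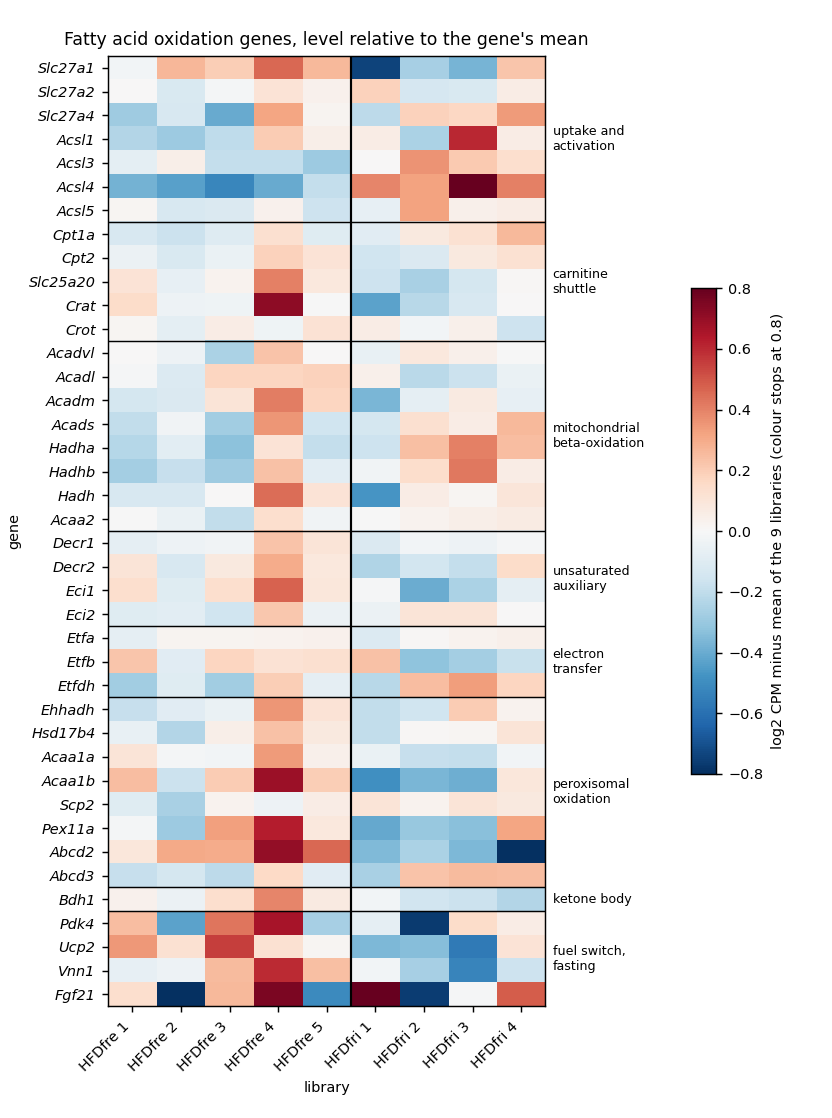
Level of each of the 40 members (rows, by role) in each of the 9 libraries (columns), as log2 CPM minus the gene's mean over the 9 libraries. The vertical line parts the 5 HFDfre from the 4 HFDfri libraries. The HFDfre 4 column is red for most rows, and the Acsl4 and Abcd2 rows change colour at the line.

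Across the 40 members, 2 passed an adjusted p of 0.05, 1 higher in HFDfri (Acsl4) and 1 lower (Abcd2). That is 5% of the members, and 1.05% of all tested genes passed (0.499% higher and 0.556% lower). At an unadjusted p under 0.05 there were 12 members, 3 higher and 9 lower (30%), against 21.2% of all tested genes (11.4% higher and 9.79% lower). The libraries of the 2 groups did not overlap for 3 members, Acsl4 (higher) and Abcd2 and Acaa1a (lower), against 7.69% of all tested genes (4.02% higher and 3.66% lower). With DESeq2 size factors, library totals in place of TMM, or the mitochondrial, Mup and Gm26924 genes left out of the scaling, the groups overlapped for Acaa1a and 2 members remained without overlap (7.62%, 5.79% and 7.70% of all tested genes). The median log2 fold change of the members was -0.04, and it was -0.01 over all tested genes, with 17 members above 0 and 23 below. With library totals in place of TMM these medians were 0.02 and 0.05, with 21 members above 0 and 19 below. Without HFDfre 4, the 12 members at an unadjusted p under 0.05 became 15, of which 9 were higher and 6 lower (11.3% and 9.71% of all tested genes), and 1 passed the adjusted threshold (Acsl4), as did 0.327% of all tested genes. Without HFDfri 1 there were 18 such members, 7 higher and 11 lower (12.8% and 12.9% of all tested genes), and 4 passed the adjusted threshold (Acsl4, Hadha, Etfb and Abcd2). In that comparison 7.65% of all tested genes passed. Without HFDfri 3 the 12 became 7 (2 higher and 5 lower, with 7.03% and 6.6% of all tested genes). These 7 members, Slc27a1, Acsl3, Acsl4, Acaa1b, Abcd2, Ucp2 and Vnn1, had an unadjusted p under 0.05 whichever library was left out. The share of all tested genes that met this rule was not computed. With any 1 library left out, 13.6% to 25.7% of all tested genes had an unadjusted p under 0.05. Leaving out any of the remaining libraries left Acsl4 alone or Acsl4 and Abcd2 past the adjusted threshold, except HFDfre 3, which left 0. In those comparisons 0.0426% to 1.63% of all tested genes passed, and 0.0427% without HFDfre 3. Members without overlap numbered 3 to 10 when 1 library was left out, against 8.68% to 18.1% of all tested genes, and were most frequent without HFDfri 4 (10 members, 11.4% of all tested genes), HFDfri 1 (9 members, 18.1%), HFDfre 2 (8 members, 11.2%) and HFDfre 4 (6 members, 11.4%). Acsl4 and Abcd2 share no exon base with another annotated gene.

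**Figure D2:**
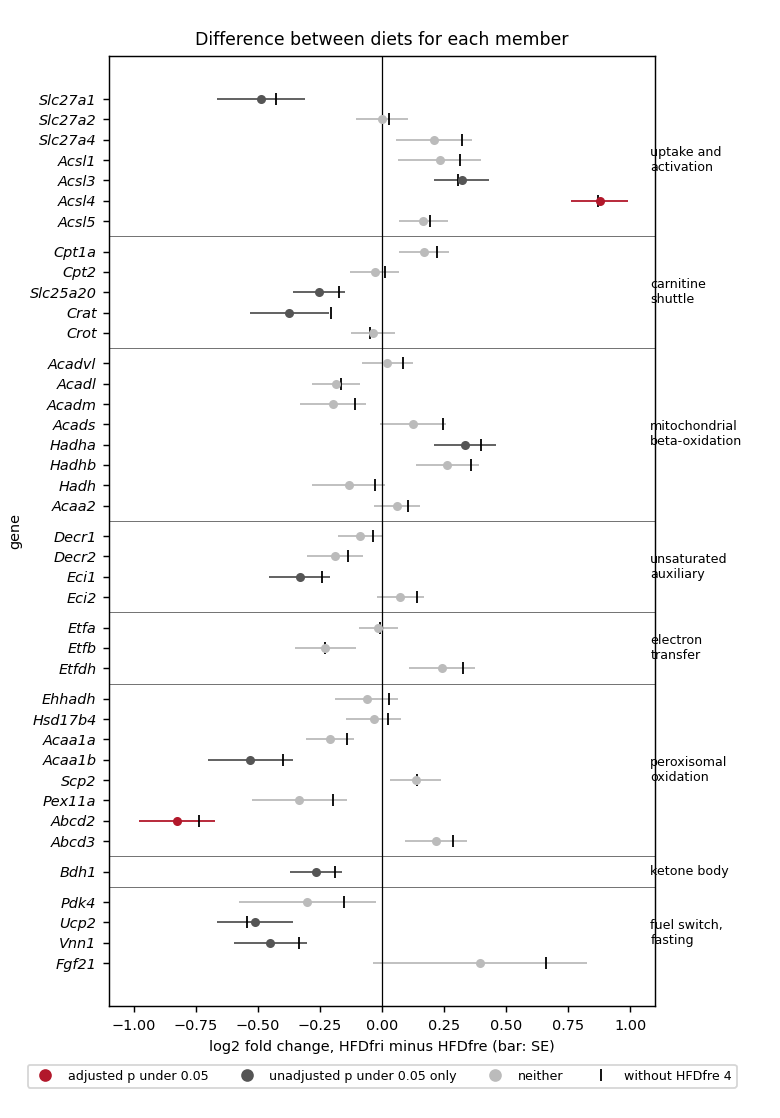
Log2 fold change of HFDfri minus HFDfre for each member, grouped by role, with bars for the SE. Points are coloured by the edgeR test, and the short vertical marks give the value without HFDfre 4, which lies to the right of the point for most members.

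The uptake and activation genes held the largest increase. Of 7 members, 6 had a positive log2 fold change, as had 49.1% of all tested genes, and that of Slc27a2 was near 0 and changed sign in 9 of 20 alternatives. Of the 7, 1 passed the adjusted threshold (against 1.05% of all tested genes) and 2 more had an unadjusted p under 0.05. Together these were 42.9% of the 7, against 21.2% of all tested genes at that unadjusted level. Acsl4 makes acyl-CoA from long-chain polyunsaturated fatty acids such as arachidonic acid (ENSMUSG00000031278, chromosome X, 142317993 to 142390535, minus strand). It was measured at 19.8, 19.1, 17.9, 19.5 and 22.6 CPM in HFDfre 1 to 5 and at 33.9, 32.2, 45.1 and 34.1 CPM in HFDfri 1 to 4. All 4 HFDfri libraries lay above all 5 HFDfre libraries, with HFDfri 3 the highest. Acsl4 rose from 19.8 ± 1.74 to 36.3 ± 5.93 CPM (mean ± SD), 1.83-fold, with a log2 fold change of 0.88 ± 0.11 (adjusted p by edgeR = 0.0147). It stood 6th by p among the 14220 tested genes. Without HFDfre 3 the difference was 0.83 and missed the adjusted threshold (adjusted p = 0.0539), and without HFDfre 4 it was 0.87 (adjusted p = 0.037).

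Acsl3, an acyl-CoA synthetase of the endoplasmic reticulum and lipid droplets, had 10.4, 11.3, 9.65, 9.62 and 8.98 CPM in the HFDfre libraries and 11.0, 14.1, 12.7 and 12.1 CPM in the HFDfri libraries. HFDfri 1 lay below HFDfre 2, and the other HFDfri libraries were above every HFDfre library. Its log2 fold change was 0.32 ± 0.11 (adjusted p by edgeR = 0.137, 0.0132 before adjustment). Slc27a1, the fatty acid transport protein FATP1, best known from muscle and fat, was the member of the group that lay lower. It had 7.82, 9.54, 9.10, 10.9 and 9.50 CPM in HFDfre and 4.75, 6.59, 6.13 and 9.28 CPM in HFDfri, where HFDfri 4 reached the HFDfre range. The log2 fold change was -0.49 ± 0.18 (adjusted p by edgeR = 0.156, 0.0179 before adjustment).

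Neither Acsl4 nor Acsl3 was a major synthetase of these livers. Per kilobase of annotated exon, the level of Acsl1, the main hepatic long-chain synthetase, was 76.3 CPM in HFDfre and 89.6 in HFDfri, and that of Acsl5 40.3 and 45.2. Acsl4 was at 3.66 and 6.72, and Acsl3 at 2.30 and 2.87 on the same scale. The log2 fold changes of Acsl1 and Acsl5 were 0.23 ± 0.17 and 0.17 ± 0.10 (adjusted p by edgeR = 0.456 and 0.361). HFDfri 3 was the highest of the 9 libraries for Acsl1, and without it the difference was 0.04. The ratio of Acsl4 to Acsl1 per length ran from 0.0388 to 0.0535 in HFDfre and from 0.0682 to 0.0879 in HFDfri, with no overlap between the groups. Slc27a2, the liver transporter and very long-chain synthetase FATP2, had the highest level of the group, 429 and 429 CPM per kilobase, with a log2 fold change of 0.00 ± 0.10. Slc27a4 differed by 0.21 ± 0.15 (adjusted p by edgeR = 0.470).

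**Figure D3:**
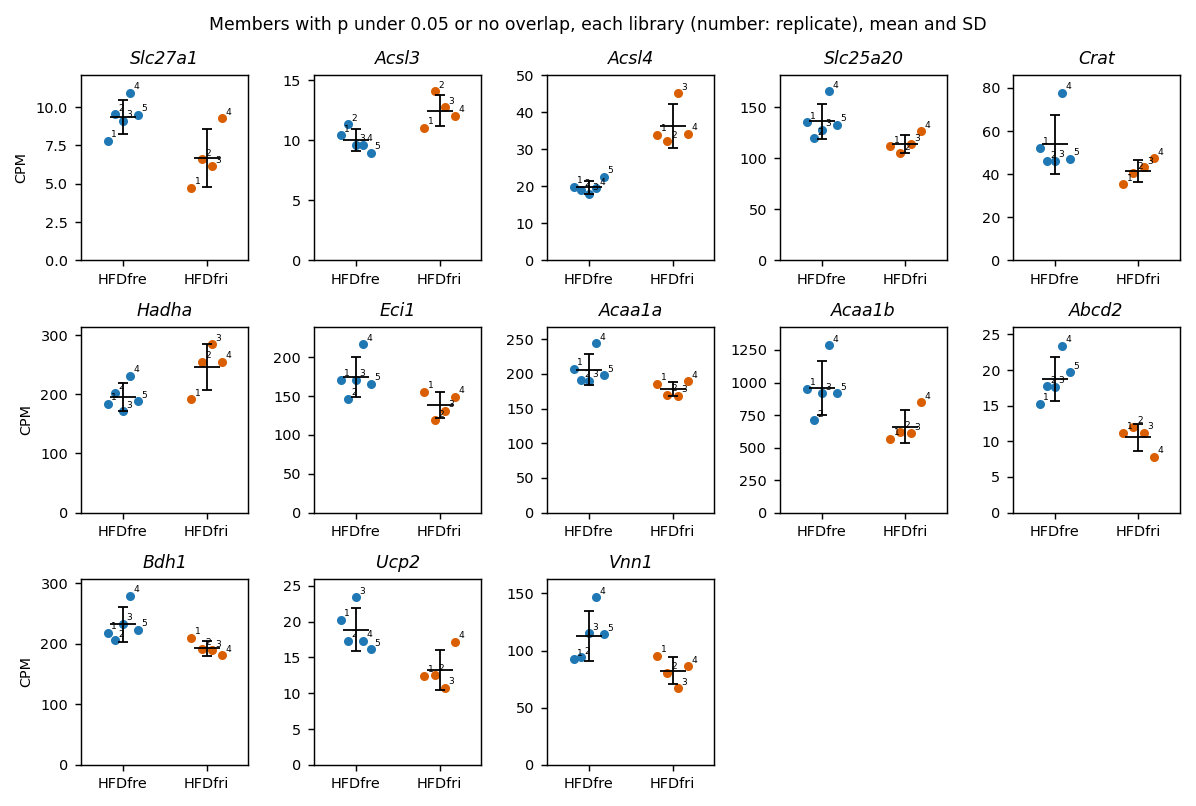
CPM of the 13 members with an unadjusted p under 0.05 or no overlap between the groups, 1 point per library (the small number is the replicate), with the mean and SD of each group. The groups are apart for Acsl4 and Abcd2, and for Acaa1a they only just part with TMM scaling and overlap with the 3 other scalings.

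None of the 5 carnitine shuttle genes passed the adjusted threshold by edgeR, DESeq2 or limma-voom. At an unadjusted p under 0.05 there were 2, both lower (40%, against 21.2% of all tested genes, 9.79% lower). Slc25a20, the carrier that exchanges acylcarnitine for carnitine across the inner mitochondrial membrane, had 135, 119, 127, 165 and 133 CPM in HFDfre and 112, 105, 114 and 126.3 CPM in HFDfri. The groups overlapped, with HFDfre 4 well above the rest. Slc25a20 differed by -0.25 ± 0.11 on the log2 scale (adjusted p by edgeR = 0.201, 0.0339 before adjustment), and -0.17 without HFDfre 4 (0.0792 before adjustment). Crat, the carnitine acetyltransferase for short-chain groups, had 52.3, 46.1, 46.1, 77.7 and 47.1 CPM in HFDfre and 35.2, 40.5, 43.2 and 47.3 CPM in HFDfri. Here too HFDfre 4 was the highest, and the remaining libraries of both groups lay between 35.2 and 52.3 CPM. The log2 fold change of -0.37 ± 0.16 (adjusted p by edgeR = 0.211, 0.0375 before adjustment) became -0.21 without that library (0.0734 before adjustment). Crat shares 7.63% of its exon bases with the antisense gene Gm16323, and reads of the pair cannot be told apart if strand was not used.

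Cpt1a, the regulated entry step of the shuttle, was measured at 329.6 ± 28.2 CPM in HFDfre and 370.1 ± 36.7 CPM in HFDfri, a log2 fold change of 0.17 ± 0.10 (adjusted p by edgeR = 0.368). It had an unadjusted p of 0.0434 without HFDfre 4, where the difference was 0.22. Cpt2, which returns the acyl group to coenzyme A inside the mitochondrion, and Crot, the peroxisomal carnitine octanoyltransferase, differed by -0.03 ± 0.10 and -0.04 ± 0.09 (adjusted p by edgeR = 0.893 and 0.848). Crot had the highest level of the 5 per length, 62.2 CPM per kilobase in HFDfre and 60.6 in HFDfri.

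Mitochondrial beta-oxidation, with 8 members, held 1 at an unadjusted p under 0.05 (12.5%, against 21.2% of all tested genes). None passed the adjusted threshold by edgeR, DESeq2 or limma-voom. Hadha is the alpha subunit of the mitochondrial trifunctional protein, which carries the hydratase and long-chain hydroxyacyl-CoA dehydrogenase activities (ENSMUSG00000025745, chromosome 5, 30118304 to 30155162, minus strand). Its levels were 183, 203, 171, 232 and 188 CPM in HFDfre and 191, 254, 284 and 254 CPM in HFDfri. HFDfri 2, 3 and 4 lay above every HFDfre library, while HFDfri 1 lay within the HFDfre range. Hadha differed by 0.33 ± 0.13 on the log2 scale (adjusted p by edgeR = 0.166, 0.0213 before adjustment), and without HFDfri 1 it was 0.42 (adjusted p = 0.0338). Hadhb, its partner subunit with the thiolase activity, had 121, 129, 120.4, 172 and 138 CPM in HFDfre and 144, 161, 196 and 153 CPM in HFDfri, a log2 fold change of 0.26 ± 0.13 (adjusted p by edgeR = 0.265, 0.0626 before adjustment). Both subunits were lowest in HFDfre 3 and highest in HFDfri 3. The ratio of Hadha to Hadhb per length was 1.09 ± 0.0733 in HFDfre and 1.14 ± 0.110 in HFDfri, with overlapping ranges.

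The acyl-CoA dehydrogenases, which take the first step of each round for chains of falling length, did not move one way. Acadvl (very long chains), Acadl (long), Acadm (medium) and Acads (short) had log2 fold changes of 0.02 ± 0.10, -0.19 ± 0.10, -0.20 ± 0.13 and 0.13 ± 0.13. Their adjusted p-values by edgeR were 0.931, 0.299, 0.418 and 0.627. Acadvl shares 42.9% of its exon bases with Dvl2 on the opposite strand, so its value is uncertain if strand was not used. Hadh, the dehydrogenase for shorter hydroxyacyl chains, differed by -0.14 ± 0.15 and Acaa2, the mitochondrial thiolase, by 0.06 ± 0.09 (adjusted p by edgeR = 0.637 and 0.751). Acaa2 had the highest level of the 8, 455 CPM per kilobase in HFDfre and 474 in HFDfri, more than that of Acadvl at 125.8 and 128.

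Unsaturated fatty acids need auxiliary enzymes, of which 4 were members. Eci1, the mitochondrial isomerase that shifts double bonds so that oxidation can go on, had 171, 146, 171, 217 and 166 CPM in HFDfre and 155, 119, 131 and 149 CPM in HFDfri. HFDfri 1 and HFDfri 4 lay within the HFDfre range and the other HFDfri libraries below it. The log2 fold change was -0.33 ± 0.12 (adjusted p by edgeR = 0.162, 0.0198 before adjustment), and it was -0.18 with an adjusted p of 0.425 after a correction for transcript length and GC content. Its peroxisomal counterpart Eci2 differed by 0.07 ± 0.09 (adjusted p by edgeR = 0.707). The ratio of Eci1 to Eci2 per length was 2.44 ± 0.201 in HFDfre and 1.86 ± 0.317 in HFDfri, with ranges of 2.13 to 2.63 and 1.52 to 2.20. The reductases Decr1 (mitochondrial) and Decr2 (peroxisomal) had log2 fold changes of -0.09 ± 0.09 and -0.19 ± 0.11 (adjusted p by edgeR = 0.604 and 0.354). Decr2 had the highest level of the 4 per length, 97.3 and 85.2 CPM per kilobase.

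Electron transfer from the dehydrogenases to the respiratory chain was the role with no call at either threshold by edgeR, DESeq2 or limma-voom. The flavoprotein subunit Etfa was at 305 ± 9.32 CPM in HFDfre and 301 ± 14.1 CPM in HFDfri, and its log2 fold change of -0.01 ± 0.08 was among the smallest of the members. Its partner subunit Etfb was at 332 ± 26.4 and 283 ± 52.9 CPM, and Etfdh, the membrane oxidoreductase that takes their electrons, at 155 ± 21.7 and 183 ± 29.1 CPM. Etfb differed by -0.23 ± 0.12 and Etfdh by 0.24 ± 0.13 (adjusted p by edgeR = 0.313 and 0.321). Without HFDfri 1, where Etfb had 361 CPM against 246 to 271 CPM in the other HFDfri libraries, the difference was -0.38 and passed the adjusted threshold (adjusted p = 0.0349). After the correction for length and GC content it was -0.0024 with all libraries. Etfb also shares 53.0% of its exon bases with the annotated gene Gm45233 on the same strand, so its value is uncertain. Per length, Etfb was the highest of the 3, at 285 and 243 CPM per kilobase.

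Peroxisomal oxidation, with 8 members, held the largest decrease. Of these, 6 had a negative log2 fold change and 2 a positive one, as had 49.1% of all tested genes. By edgeR, 1 passed the adjusted threshold (against 1.05% of all tested genes) and 1 more, Acaa1b, had an unadjusted p under 0.05. Together these were 25% of the 8, near the 21.2% of all tested genes at that unadjusted level. Abcd2 is a transporter of very long-chain acyl-CoA in the peroxisomal membrane (ENSMUSG00000055782, chromosome 15, 91145871 to 91191799, minus strand). Its levels were 15.3, 17.7, 17.6, 23.4 and 19.7 CPM in HFDfre and 11.2, 12.0, 11.2 and 7.81 CPM in HFDfri. All HFDfri libraries lay below all HFDfre libraries, with HFDfre 4 the highest and HFDfri 4 the lowest of the 9. Abcd2 fell from 18.7 ± 3.02 to 10.6 ± 1.87 CPM, 1.77-fold lower, with a log2 fold change of -0.83 ± 0.15 (adjusted p by edgeR = 0.0354). The call ended without HFDfre 2, 3, 4 or 5 or without HFDfri 3 or 4 (adjusted p = 0.0509 to 0.0932), with the difference between -0.90 and -0.71 whichever library was left out. It also ended with library totals in place of TMM (adjusted p = 0.0769) and with the Gm26924 share as a covariate (adjusted p = 0.0574).

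Abcd3, the more abundant transporter of the same membrane, had 227, 234, 223, 289 and 243 CPM in HFDfre and 215, 301, 307 and 305 CPM in HFDfri. HFDfri 1 was the lowest of the 9, and the other HFDfri libraries were the highest. Its log2 fold change was 0.22 ± 0.12 (adjusted p by edgeR = 0.349). The ratio of Abcd2 to Abcd3 per length was 0.0852 ± 0.00642 in HFDfre and 0.0427 ± 0.0121 in HFDfri, and the ranges of 0.0746 to 0.0900 and 0.0284 to 0.0578 did not overlap. Pex11a, which takes part in peroxisome division, was at 126.1 ± 30.9 and 100.1 ± 25.7 CPM, a log2 fold change of -0.33 ± 0.19 (adjusted p by edgeR = 0.350).

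The thiolases of the last peroxisomal step both lie on chromosome 9, Acaa1b at 119148023 to 119157093 and Acaa1a at 119339676 to 119350299. Acaa1b had 949.6, 709, 918, 1286 and 916 CPM in HFDfre and 569, 619, 609 and 849 CPM in HFDfri. HFDfri 4 lay within the HFDfre range and the other HFDfri libraries below it. Acaa1b differed by -0.53 ± 0.17 on the log2 scale (adjusted p by edgeR = 0.118, 0.00894 before adjustment), and -0.40 without HFDfre 4 (0.0201 before adjustment). After the correction for length and GC content the Acaa1b difference was -0.36 (adjusted p by edgeR = 0.242). Acaa1a had 207, 190.5, 190.0, 244 and 198 CPM in HFDfre and 185, 169.5, 168 and 189 CPM in HFDfri, so the lowest HFDfre library lay just above the highest HFDfri library. It differed by -0.21 ± 0.10 (adjusted p by edgeR = 0.244, 0.0535 before adjustment) and by -0.14 without HFDfre 4 (0.127 before adjustment). Acaa1b was the more abundant, with a ratio to Acaa1a per length of 10.4 ± 1.26 in HFDfre and 8.34 ± 1.31 in HFDfri, whose ranges overlapped. The 2 genes are close paralogs, and reads that match both may be split between them, so their separate values are uncertain. Acaa1b also shares 11.4% of its exon bases with Dlec1 and Acaa1a 6.57% with Myd88, both on the opposite strand.

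The other steps of the peroxisomal pathway differed little. Ehhadh, the bifunctional enzyme of straight chains, and Hsd17b4, that of branched chains and bile acid precursors, had log2 fold changes of -0.06 ± 0.13 and -0.03 ± 0.11 (adjusted p by edgeR = 0.822 and 0.890). Scp2, which encodes a thiolase and a lipid carrier, had 3619.6 ± 308 CPM in HFDfre and 3976 ± 93.7 CPM in HFDfri, a log2 fold change of 0.14 ± 0.10 (adjusted p by edgeR = 0.481). Per length it was the highest of all 40 members, at 1041 and 1143 CPM per kilobase. Next in HFDfre came Acaa1b (487 CPM per kilobase), Acaa2 (455) and Slc27a2 (429), and in HFDfri Acaa2 (474) and Slc27a2 (429) stood above Acaa1b (337).

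**Figure D4:**
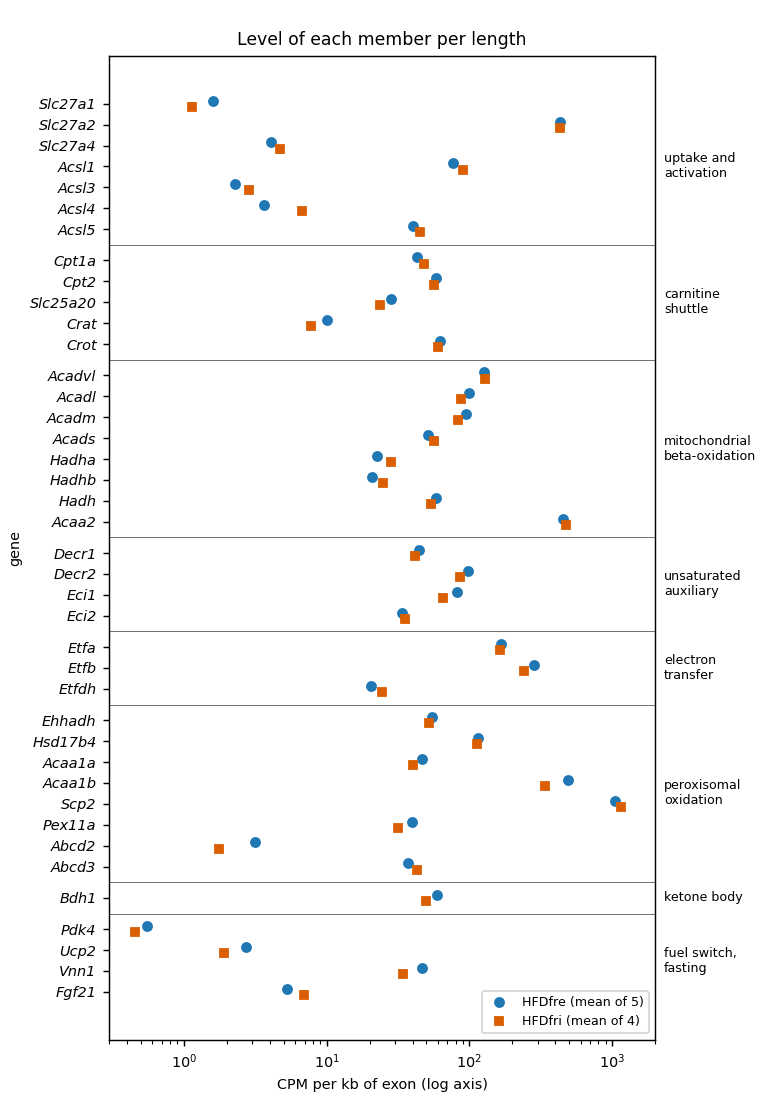
Mean level of each member per kilobase of annotated exon in HFDfre (circles) and HFDfri (squares), on a log axis. In HFDfre the members span from 0.556 CPM per kilobase (Pdk4) to 1041 (Scp2), and the groups differ far less than the genes do.

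Ketone body metabolism was covered by Bdh1, the mitochondrial enzyme that interconverts acetoacetate and beta-hydroxybutyrate. It had 217, 206, 233, 279 and 223 CPM in HFDfre and 209.8, 191, 189 and 181 CPM in HFDfri. HFDfri 1 lay above HFDfre 2, and the other HFDfri libraries were below every HFDfre library. Its difference was -0.27 ± 0.10 on the log2 scale (adjusted p by edgeR = 0.174, 0.0241 before adjustment), and -0.19 without HFDfre 4 (0.0544 before adjustment). Bdh1 shares 13.7% of its exon bases with the antisense gene Gm15743.

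Among the 4 genes of fuel choice and fasting signals, 2 had an unadjusted p under 0.05 by edgeR, against 21.2% of all tested genes. Both (Ucp2 and Vnn1) were lower. None of the 4 passed the adjusted threshold by edgeR or limma-voom. Ucp2 and Vnn1 passed it by DESeq2, as did 7.51% of all tested genes. Ucp2, an uncoupling protein of the inner mitochondrial membrane that immune cells also express, had 20.3, 17.4, 23.4, 17.4 and 16.1 CPM in HFDfre and 12.4, 12.6, 10.8 and 17.2 CPM in HFDfri. HFDfri 4 reached the HFDfre range and the other HFDfri libraries were below it. The log2 fold change was -0.51 ± 0.15 (adjusted p by edgeR = 0.105, 0.00557 before adjustment). The 4 macrophage markers analysed (Clec4f, Cd68, Csf1r and Marco) summed to 44.2 to 92.6 CPM in HFDfre and 47.1 to 63.3 CPM in HFDfri, and the part of such cells in the Ucp2 values was not tested. Vnn1, a pantetheinase of coenzyme A turnover, had 92.3, 94.0, 115, 147 and 114 CPM in HFDfre and 95.5, 80.6, 67.1 and 86.2 CPM in HFDfri. Its groups overlapped only through HFDfri 1, which lay between HFDfre 2 and the higher HFDfre libraries. The difference was -0.45 ± 0.15 on the log2 scale (adjusted p by edgeR = 0.122, 0.00982 before adjustment), and -0.34 without HFDfre 4 (0.0217 before adjustment).

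Pdk4, the kinase that holds back pyruvate dehydrogenase, was at the lowest level per length of all members, 0.556 CPM per kilobase in HFDfre and 0.451 in HFDfri, with a log2 fold change of -0.30 ± 0.28. Fgf21, the fasting hormone secreted by liver, varied most between libraries of 1 group. It ran from 1.71 to 8.47 CPM in HFDfre and from 2.97 to 11.6 CPM in HFDfri, and its difference of 0.39 ± 0.43 was smaller than its SE (adjusted p by edgeR = 0.640). At this spread a change of 1.31-fold in its mean was not detectable. Vnn1 had the highest level of the 4 per length, 46.6 and 34.1 CPM per kilobase.

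**Figure D5:**
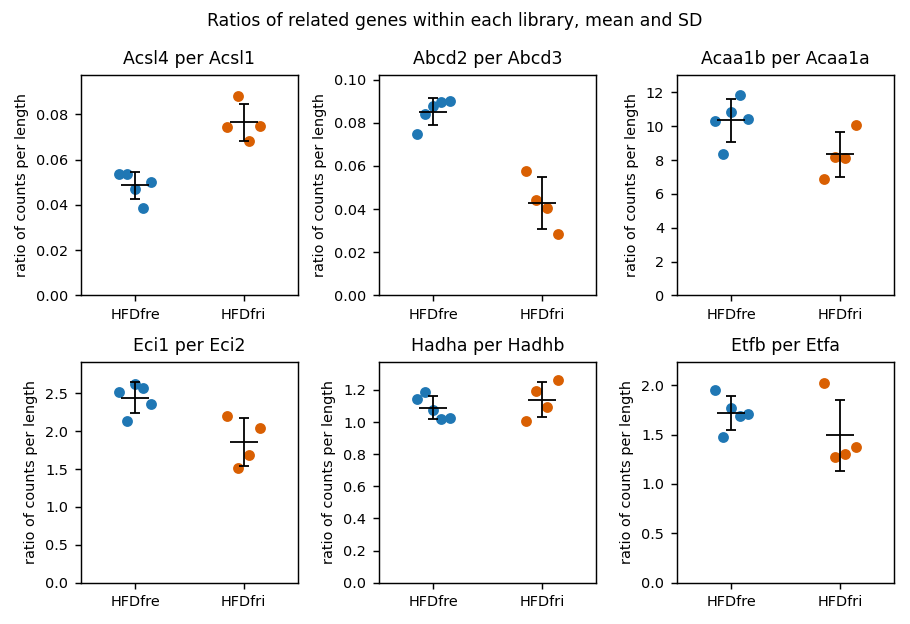
Ratios of counts per length between related members within each library, 1 point per library, with the mean and SD of each group. The groups do not overlap for Acsl4 per Acsl1 and Abcd2 per Abcd3, and they overlap for the other pairs. Acsl4 and Abcd2 also had no overlap on their own, so these ratios are not separate support.

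Fold changes went with transcript length over the whole table. Genes with under 3 kb of annotated exon had a median log2 fold change of -0.12, those over 5 kb one of 0.06, and Spearman's rho between fold change and exon length was 0.216 across 14084 genes. Across the 40 members rho was 0.220. The points share the same 9 libraries, and genes are not independent replicates. Of the 13 members under 3 kb, 4 had a positive log2 fold change, of the 14 between 3 and 5 kb 5 did, and of the 13 over 5 kb 8 did. After a correction for length and GC content, rho was 0.0707 across the members, Acsl4 and Abcd2 both still passed the adjusted threshold (log2 fold changes of 0.85 and -0.89), as did 0.956% of all tested genes. There were again 12 members with an unadjusted p under 0.05, 4 higher and 8 lower, against 12% and 7.3% of all tested genes.

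Other genes of the pathway were read from lists written with earlier results of these data known. Of 30 further oxidation and ketone genes tested, none passed the adjusted threshold by edgeR or limma-voom and 2 by DESeq2 (Hsd17b10 and Acsm5), and 6 (20%, against 21.2% of all tested genes) had an unadjusted p under 0.05 by edgeR, 4 higher and 2 lower. By DESeq2, 7.51% of all tested genes passed the adjusted threshold. The smallest p-values were those of Hsd17b10, a mitochondrial hydroxyacyl-CoA dehydrogenase (log2 fold change -0.43 ± 0.12), Acsm5, a medium-chain acyl-CoA synthetase (-0.31 ± 0.09), Acad11, an acyl-CoA dehydrogenase (0.41 ± 0.16), and Acacb, whose product malonyl-CoA inhibits CPT1 (0.68 ± 0.27). After the correction for length and GC content, Hsd17b10 was at -0.28 (adjusted p = 0.199). Of 15 peroxisome biogenesis genes, none passed the adjusted threshold by edgeR, DESeq2 or limma-voom, and Pex16 had an unadjusted p under 0.05 with a log2 fold change of -0.24 ± 0.10. Its difference was -0.01 after the correction for length and GC content.

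The list of PPARA with its partners and coactivators held 4 of 7 genes at an unadjusted p under 0.05, all higher (against 11.4% of all tested genes higher), and none past the adjusted threshold by edgeR or limma-voom. Ppara passed it by DESeq2. It was at 21.7 ± 5.57 CPM in HFDfre and 38.4 ± 14.5 CPM in HFDfri, a log2 fold change of 0.82 ± 0.25 (adjusted p by edgeR = 0.108, 0.00607 before adjustment), with overlapping groups. Its partner Rxra differed by 0.32 ± 0.12, Creb3l3, a transcription factor of the fasting liver, by 0.26 ± 0.09, and Lpin1, a coactivator and phosphatidate phosphatase, by 0.67 ± 0.26. The coactivators Ppargc1a and Ppargc1b lay on the other side, at -0.40 ± 0.23 and -0.19 ± 0.26 (adjusted p by edgeR = 0.351 and 0.724). Of 16 PPARA targets outside the 40 members, 8 had an unadjusted p under 0.05 and 4 passed the adjusted threshold, all lower (against 9.79% and 0.556% of all tested genes), and their median log2 fold change was -0.41, against -0.04 for the members. The 4 were the acyl-CoA thioesterases Acot3 and Acot4 (log2 fold changes -2.45 ± 0.30 and -1.05 ± 0.16) and the fatty acid omega-hydroxylases Cyp4a10 and Cyp4a14 (-0.86 ± 0.17 and -1.63 ± 0.33). Acot4 fell from 25.3 ± 4.77 to 12.2 ± 2.24 CPM and Cyp4a10 from 520.0 ± 117 to 286 ± 48.6 CPM (adjusted p by edgeR = 0.0293 and 0.0396). Of 20 alternatives, the adjusted threshold was passed by Acot3 in 19, Acot4 in 15, and Cyp4a10 and Cyp4a14 in 8 each. The Acot4 call ended without HFDfre 3, HFDfre 5 or HFDfri 4 (adjusted p = 0.0541, 0.0705 and 0.0540), and the Cyp4a10 call held without HFDfri 1 alone among the libraries left out, with adjusted p of 0.0504 to 0.0992 without any other. The Cyp4a14 call held without HFDfre 1 or HFDfri 1 (adjusted p = 0.0585 to 0.0932 without any other). DESeq2 called 6 of the 16, with Acot2 and Cd36 added, and 7.51% of all tested genes. Not all of the 16 lay lower. Angptl4, Plin2 and G0s2 had log2 fold changes of 0.29 ± 0.16, 0.30 ± 0.16 and 0.26 ± 0.34 (adjusted p by edgeR = 0.339, 0.314 and 0.700). The list was written with earlier results known and holds several Acot and Cyp4a paralogs. The Acot and Cyp4a genes have close paralogs, between which reads may be split, so their values are uncertain.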

How the data were processed

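Liver RNA of 9 mouse samples was sequenced as paired-end Illumina libraries. The submitters' processing notes name HISAT2, StringTie and mm10, and versions, annotation and strand are not given in the sources used here. The labels give the NEBNext Ultra kit and the study's methods KAPA RNA HyperPrep. The authors' deposited table was read as estimated counts by gene, without scaling between libraries. Its values were whole numbers, so rounding left them as they were, and count models treat the error of such estimates only approximately.

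HFDfri was set against HFDfre by quasi-likelihood tests in edgeR 4.0.16 (R 4.3.3, TMM, filterByExpr by group, no covariate), and p-values were adjusted by Benjamini-Hochberg over all 14220 tested genes. Log2 CPM used a prior count of 2. An SE is the log2 fold change divided by the root of the F statistic. DESeq2 1.42.0 (used by the study), limma-voom (limma 3.58.1), other scalings and filters, robust dispersion, a Gm26924 covariate, a replicate block and leaving out each library were alternatives, and a length and GC correction (splines with 5 degrees of freedom) was added after seeing the data. Scripts were tested on simulated data. Exon lengths and coordinates are from GENCODE M21 (GRCm38, 96.5% of identifiers matched, all 40 members), and promoters from RefSeq (GRCm38). Library measures and marker sums were compared with two-sided exact permutation tests.

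Members and lists were chosen with earlier results of these data known. Values in every library are given for members with an adjusted or unadjusted p under 0.05 or no overlap between the groups, and for others where a paired gene is described. Other genes are named where p was under 0.05, at most 4 per list by smallest p, and a few for their place in the pathway or their direction. Some genes of these lists are not reported here.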

Additional observations from a re-analysis of the deposited data

Results flagged for a closer look

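A library far from the rest of its group was sought in each of 80 sets, the 40 members in 2 groups, by setting its gap to the nearest library against the whole range of the group. Such gaps were found in 6 sets, and about 4 are expected by chance. Cpt1a in HFDfre 4 was at 8.57 log2 CPM, with the other HFDfre libraries at 8.26 to 8.34. Crat in HFDfre 4 was at 6.28 log2 CPM, against 5.53 to 5.71. Both are carnitine shuttle genes, and HFDfre 4 was the library with the highest level in 22 of the 40 members. Hadh, the dehydrogenase for shorter hydroxyacyl chains, was at 7.64 log2 CPM in HFDfri 1 and at 8.13 to 8.21 in the other HFDfri libraries, and its log2 fold change between the diets was -0.03 without HFDfri 1 and -0.14 with it. Abcd3, the peroxisomal transporter, was at 7.75 log2 CPM in the same library, against 8.24 to 8.26, and its log2 fold change between the diets was 0.31 without HFDfri 1 and 0.22 with it. Etfa in HFDfre 1 was at 8.17 log2 CPM, against 8.26 to 8.28. Pex11a, which takes part in peroxisome division, was at 7.11 log2 CPM in HFDfri 4, against 6.39 to 6.49 in the other HFDfri libraries, and its log2 fold change was -0.53 without that library and -0.33 with it.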

How the results depend on the processing

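The 2 members past the adjusted threshold became 5 with DESeq2 (Acsl4, Acaa1b, Abcd2, Ucp2 and Vnn1), where 7.51% of all tested genes passed, 1 with library totals in place of TMM (0.534% of all tested genes), 1 with the Gm26924 share as a covariate (0.267%), and 0 to 4 when 1 library was left out (0.0426% to 7.65%). The 12 members at an unadjusted p under 0.05 became 7 with library totals (17.3% of all tested genes) and 7 to 18 when 1 library was left out (13.6% to 25.7%). The causes were not tested. Library totals moved the median of all genes to 0.05 and that of the members to 0.02, and leaving out 1 library put the members' median between -0.09 and 0.00. Acsl4 passed the adjusted threshold in 18 of 20 alternatives, with a log2 fold change of 0.75 to 0.94, and Abcd2 in 11 of 20, with -0.90 to -0.71. The 12 members at an unadjusted p under 0.05 kept their direction in all 20 alternatives, and 8 of the other 28 members changed sign in at least 1 (Slc27a2, Cpt2, Crot, Acadvl, Etfa, Ehhadh, Hsd17b4 and Fgf21). The 12 were picked by p from these same libraries, so their kept direction is no separate support. The same counts over all tested genes were not made. Replicate numbers did not pair the libraries (correlations of 0.0270, 0.0814, -0.136 and 0.0339 between same-numbered libraries), and a fit with the replicate number as a block left 0 members past the adjusted threshold by edgeR, as it left 0 of all 14220 tested genes, and 13 at an unadjusted p under 0.05, against 17.8% of all tested genes. Pdk4 and Fgf21 had the lowest mean levels of the members, at 1.95 and 5.05 CPM in HFDfre, and what depth adds to their spread was not tested.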
